A study of Homo sapiens with 7 samples.

Results

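CTCF intervals that share sequence with an H3K4me3 interval were described in HCT116 cells, a human colorectal carcinoma line. The members were selected by overlap of the deposited intervals, without use of any gene: a CTCF interval was a member if it shared at least 1 bp of hg19 with an H3K4me3 interval. Of the 44812 CTCF intervals, 7305 were members (16.3%, 95% Wilson interval 16.0 to 16.6%), among 240889 intervals in the 6 lists of the series. Cells grown to 200000 per well were crosslinked and sheared in the 96-well plate by PIXUL, a microplate ultrasound instrument, and each library came from 1 well and 1 antibody. The lists were H3K4me1, H3K4me3, H3K9Ac, H3K27me3, H3K36me3 and CTCF, with 1 library each. All were from the same cell line, and the labels name no treatment, genotype or further clone. With no replicate there was no test, and the intervals given here cover counting error only, since neighbouring intervals of 1 library are not independent replicates. The lists do not hold the depth of the libraries, so it is unknown.

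CTCF is a DNA-binding protein with a row of zinc fingers that reads a long, asymmetric motif. Together with the cohesin ring it holds the bases of chromatin loops, and loops form mostly between motifs that face each other. Methylation of a CpG within the motif can keep CTCF off the DNA. H3K4me3 is the trimethyl mark of histone H3 at the start sites of active and poised genes, mostly in CpG islands, so closeness to a transcription start site (TSS) is largely built into the rule that chose the members. The rule does not use the side of the TSS, the sequence or the other histone marks. High GC content and the marks of active promoters nonetheless come with H3K4me3. H3K9Ac overlapped 97.8% of H3K4me3 intervals without CTCF. Promoters inside H3K4me3 without CTCF had a median GC content of 68.0% in 300 bp around the TSS.

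Each interval carries a fold enrichment, which the Methods of the study describe as relative to input, and a q-value. The Methods kept H3K4me3 intervals that were enriched more than 5-fold at a q-value under 1e-10. They state no limit for CTCF by name, and the same limit was applied to CTCF here. Of all CTCF intervals, 54.8% passed these limits, and of the members 51.4% (3755). The members fell into 4 classes. In 2913 (39.9%) the CTCF interval and an H3K4me3 interval it touched both passed, in 842 (11.5%) CTCF alone passed, in 3123 (42.8%) H3K4me3 alone passed, and in 427 (5.85%) neither did. Below, members past both limits are called strong members and the other 4392 weak members.

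The sites with the highest CTCF fold enrichment are shown first. The 10 strong members with the highest CTCF fold enrichment within 1000 bp of a protein-coding TSS lay at NBN, ABCA3, CSK, CRYBG1, DNAJC11, RPL26, DNLZ, ASB6, GAA and NYAP1, and 10 of these 10 intervals contained the TSS. A search for the 12-base core of the CTCF motif, which allows a choice of bases at 4 positions, found a match with at most 1 mismatch in 9 of them. The core lay upstream of the TSS in 8 and read in the direction of the gene in 6. Each line below gives 30 bases of the hg19 reference on the strand of the core, 5′ to 3′. Capitals mark bases that match the core, and a lower-case letter inside the capitals is the mismatch.
ABCA3: cgcctatgtCCAGCAGGGGGCgcgcagcgg
NYAP1: cggctcagcCCAGCAGGGGGCgtgctccgg
CSK: ccccggcgcCCgGCAGGGGGCgccgccccg
DNLZ: cccctcaggCCgCCAGGGGGCggcatagcg
ASB6: tcctccgagCCcGCAGGGGGCgctgtcgcc
GAA: ccggagccgCCACTgGGGGGCgtagcgcgg
CRYBG1: ccagagcatCCAGTAGGTGtCgctgtccca
RPL26: ccctcctagCCACTAGGTGaCactagccat

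The cores of ABCA3 (chr16:2391006-2391017) and NYAP1 (chr7:100080978-100080989) were exact and lay 282 bp and 567 bp upstream of the TSS, on the strand opposite to the gene. The other 6 differed from the core at 1 base and read with the gene. They lay 79 bp upstream of CSK (chr15:75074337-75074348), 101 bp upstream of DNLZ (chr9:139258292-139258303), 74 bp upstream of ASB6 (chr9:132404499-132404510), 133 bp upstream of GAA (chr17:78075242-78075253), 179 bp upstream of CRYBG1 (chr6:106808408-106808419) and 130 bp upstream of RPL26 (chr17:8286636-8286647). In canonical coding transcripts these positions were outside genes, except that the DNLZ core fell in the 3′ UTR of another coding gene. The core at NBN was exact, 368 bp downstream of the TSS and opposite to the gene. DNAJC11 had no core within 1 mismatch. The mismatch of CSK and DNLZ was A3G, with positions counted from 1 at the 5′ end of the core and the base of the core first.

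A second set shows loci that were chosen by name: factors of the CTCF and cohesin machinery, loci that the study assayed, and PIM1, a locus long linked to CTCF.
STAG1: gcaccgcggCCAGCAGAGGGCggtccggac
ESCO1: aagcggccgCCgCTAGGGGGCgccgccact
CTCF: gccgggcggCgAGTAGAGGGCgggggagga
EGR1: gagagggaaCCtCCAGGGGGCagcaccgag
TBX3: acagagtcgCCtCTAGGTGGCttatcgaga
PIM1: cgccgctgcCCAGTAGcGGGCccacctggt

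Of these cores, that of PIM1 lay 665 bp downstream of the TSS in coding sequence (chr6:37138588-37138599), and the others lay upstream: 34 bp for STAG1 (chr3:136471249-136471260), 327 bp for ESCO1 (chr18:19180987-19180998), 69 bp for CTCF itself (chr16:67596355-67596366), 1205 bp for EGR1 (chr5:137799958-137799969) and 279 bp for TBX3 (chr12:115122254-115122265). STAG1, which encodes a cohesin subunit, held 2 exact cores, and the one nearer to the middle of its interval is shown. ESCO1, a cohesin acetyltransferase, again had A3G. Other loci chosen by name had a member without such a core. Among the CTCF and cohesin factors these were YY1, PDS5A, PDS5B, STAG2, NIPBL, RAD21, WAPL, MAU2 and ZNF143. Among the assayed loci they were RPL32 and NR4A3, and among loci linked to CTCF they were APP, MYC, PLK1 and IGF2.

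Fold enrichment of the members covered a wide range. Their median CTCF fold enrichment was 6.90 (quartiles 4.07 and 13.6, highest 42.1), against 7.18 (4.76 and 10.6) in the 37507 CTCF intervals without H3K4me3. The middle values were alike and the tails were not. When all CTCF intervals were ranked by fold enrichment and cut into 10 equal parts, members made up 27.1% of the lowest part (25.8 to 28.4%), 9.57% of the seventh (8.75 to 10.5%) and 35.6% of the highest (34.2 to 37%). Members were also wider, with a median of 868 bp against 635 bp.

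**Figure D1:**
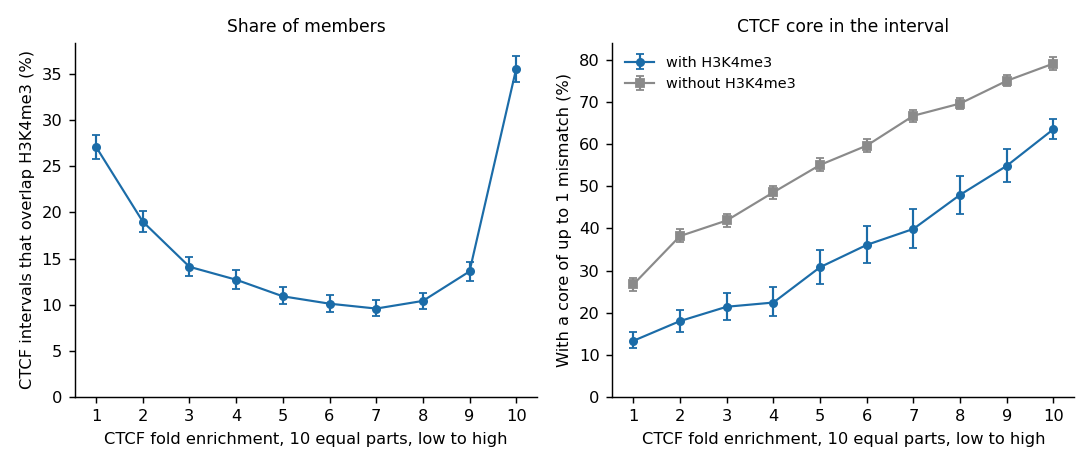
Left, share of CTCF intervals that overlap H3K4me3 (%) in 10 equal parts of all CTCF intervals ordered by CTCF fold enrichment. Right, share with a CTCF core of up to 1 mismatch (%) in intervals with H3K4me3 (blue circles) and without it (grey squares); bars are 95% Wilson intervals. Members make up 27.1% of the lowest and 35.6% of the highest part, and in each of the 10 parts fewer of them hold a core.

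The classes differed in H3K4me3, which partly follows from how they were defined, and in base composition. Members in which H3K4me3 alone passed had a median CTCF fold enrichment of 4.02 within H3K4me3 intervals of median 24, and the median GC content of the CTCF interval was 68.7%. Strong members had a median of 13.2 within H3K4me3 intervals of median 20.5, with a GC content of 63.5%. In the 842 members in which CTCF alone passed, the values were 13.9 for CTCF and 4.30 for H3K4me3, and in the 427 in which neither passed they were 4.25 and 3.84. GC content was 57.1% and 53.7% in these last 2 classes. Members in which H3K4me3 alone passed were the most GC-rich class, and the part of GC content in their low CTCF values was not tested.

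**Figure D2:**
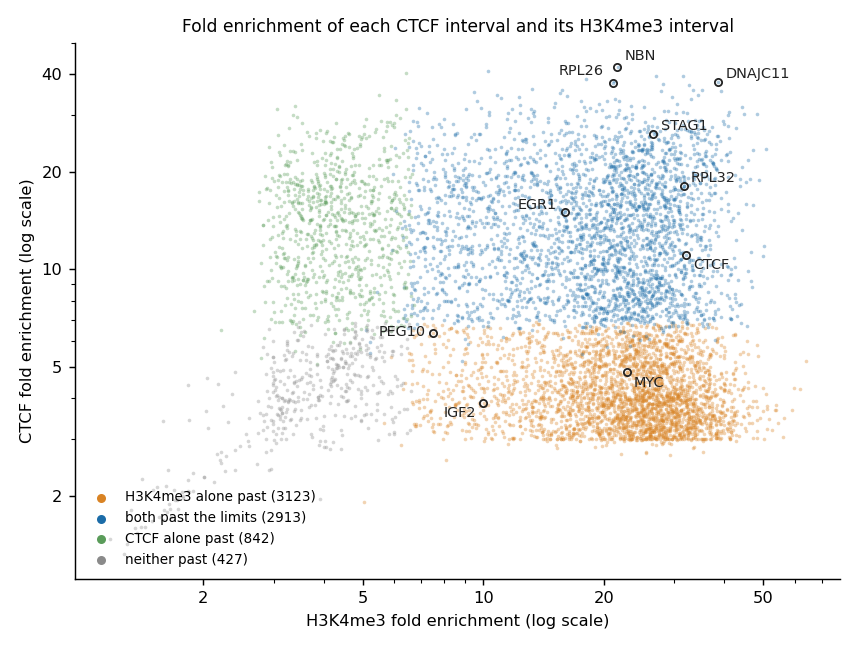
CTCF fold enrichment of each of the 7305 members (vertical, log scale) against that of the H3K4me3 interval it overlaps most (horizontal, log scale), 1 point each, coloured by which of the 2 passed the limits of the Methods; circles mark named genes. NBN stands highest for CTCF at 42.1, and MYC (4.82) and IGF2 (3.87) lie among the members in which H3K4me3 alone passed.

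Most members were nested in the mark. In 3770 (51.6%, 50.5 to 52.8%) the CTCF interval lay wholly inside H3K4me3, 2759 (37.8%) crossed an edge of it, and 776 (10.6%) contained the whole H3K4me3 interval. The rule has few cases at its limit. Overlap was at most 50 bp in 31 members, with a median fold enrichment of 6.70, and 21 CTCF intervals without overlap lay at most 50 bp away, with a median of 7.08.

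Seen from the mark, 7247 of 16112 H3K4me3 intervals held CTCF (45.0%, 44.2 to 45.7%). Of these, 7161 touched 1 CTCF interval, 83 touched 2 and 3 touched 3. The 3 with most CTCF lay over HOXA9 and HOXA10 (chr7:27200147-27214390), homeobox genes of the body axis, over the zinc finger gene ZNF503 and its antisense RNA (chr10:77154876-77165114), and over RGMB, a BMP co-receptor, and RGMB-AS1 (chr5:98104088-98111014). Intervals with CTCF were a little wider (median 1828 bp against 1634 bp) and had a fold enrichment of 19.6 against 16.7. Among H3K4me3 intervals past the limits the values lay closer, at 1878 bp and 20.5 with CTCF past the limits and 1846 bp and 20 without CTCF. The share with CTCF was 37.6% in the third of 10 equal width classes and 62.2% (59.8 to 64.5%) in the widest, which runs from 2878 to 15716 bp. For CTCF intervals past the limits it was 30.0% in the narrowest class (up to 570 bp), 19.4% in the seventh and 27.4% in the widest. The widest strong member, of 5233 bp with a fold enrichment of 15.7, contained the TSS of PDE4A, a cyclic AMP phosphodiesterase (chr19:10526938-10532170).

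Members lay at TSSs of every gene class. A TSS of any GENCODE transcript lay inside 67.9% of the members (66.9 to 69.0%), against 15.8% of all CTCF intervals and 5.64% of those without H3K4me3. A further 14.6% lay upstream of the nearest TSS and 17.4% downstream, and the median distance from the middle of a member to a TSS was 222 bp. With canonical protein-coding TSSs alone, 47.3% contained the TSS (3457), 60.9% had their middle within 1000 bp of it, and 27.9% (2037) had it over 5000 bp away. Those distant members were unevenly spread over the classes: 21.6% of strong members, 12.9% of those in which H3K4me3 alone passed, 78.0% of the 842 in which CTCF alone passed, and 81.5% of the 427 in which neither did.

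The side of the TSS differed between strong and weak members. Among strong members whose middle lay within 250 bp of the nearest canonical coding TSS, 661 lay upstream and 367 downstream. This made 64.3% upstream (61.3 to 67.2%). Among weak members the counts were 545 and 733, or 42.6% upstream (40 to 45.4%). Split by the CTCF limit alone, 64.8% (61.9 to 67.6%) of members past it and 41.4% (38.7 to 44.2%) of members not past it lay upstream. The weak members include the 842 in which CTCF alone passed, and of the 48 of these within 250 bp, 36 lay upstream and 12 downstream. Of the 21 in which neither passed, 12 lay upstream and 9 downstream (57.1%, 36.5 to 75.5%). Within 250 bp, 1028 of 1076 members past the CTCF limit were strong, and in 1209 of 1230 not past it H3K4me3 alone passed. The CTCF and H3K4me3 limits can thus hardly be told apart by side. Over all members 52.3% were upstream (50.3 to 54.3%). Strong members were not alone in lying upstream, since the few CTCF intervals without H3K4me3 in the same range divided into 141 upstream and 48 downstream (74.6%, 68.0 to 80.3%). With TSSs of all coding transcripts the share of these intervals was lower, at 56.1% (52.9 to 59.2%). It was then 60.4% (57.9 to 62.9%) for strong and 47.2% (45.0 to 49.4%) for weak members. Within 1000 bp of a canonical coding TSS the values were 59.6% for strong and 39.5% for weak members. Counted from the edge of the interval instead, strong members that did not reach the canonical coding TSS were upstream in 46.7% of cases (44 to 49.5%), while strong members that contained it had their middle upstream in 60.9% (58.6 to 63.2%). With TSSs of all transcripts, members beside the TSS were upstream in 45.6% (43.6 to 47.6%) and strong members in 48.1% (44.3 to 52.0%).

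H3K4me3 covered more sequence downstream of the TSS than upstream, so the counts were divided by the length covered. Around 12101 coding TSSs inside H3K4me3, strong members had their middle 0 to 300 bp upstream at 214 per Mb and downstream at 118 per Mb, a ratio of 1.81. Weak members stood at 189 and 240 per Mb, a ratio of 0.787, and all members at 402 and 358 per Mb, a ratio of 1.12. Over 0 to 1000 bp the ratio was 1.90 for strong members, 0.951 for weak members and 1.27 for all, so that weak members were closer to even over this range than within 300 bp. From 1000 to 2000 bp it was 1.75, 1.67 and 1.71. Within 300 bp the ratios of strong and weak members were 1.81 and 0.739 after removal of the 1781 TSSs with another coding TSS head to head within 1000 bp, so both held without these pairs. For strong members the highest density of any 100-bp bin was 276 per Mb, in the 100 bp just upstream, and it was 161 per Mb in the 100 bp just downstream.

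**Figure D3:**
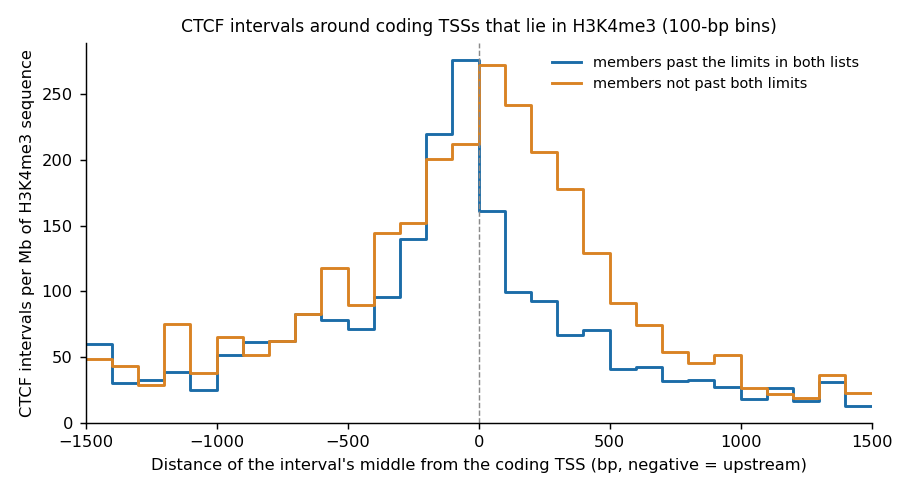
CTCF intervals per Mb of H3K4me3-covered sequence (vertical) by distance of their middle from the coding TSS (horizontal, bp, negative values upstream), in 100-bp bins over 12101 TSSs. Members past the limits in both lists (blue) are densest in the 100 bp upstream, at 276 per Mb against 161 per Mb on the other side, while the other members (orange) are denser downstream within 300 bp.

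The core was searched inside each CTCF interval, so its position is bounded by the interval and is not separate evidence of the side. In strong members it lay mostly upstream as well. Within 1000 bp of a TSS of a coding transcript, 170 strong members held an exact core, and it lay upstream in 123 of them (72.4%, 65.2 to 78.5%). With up to 1 mismatch it was 666 of 950 (70.1%, 67.1 to 72.9%), at a median of 75 bp upstream. In weak members the core was not shifted downstream, with 36 of 55 exact cores (65.5%, 52.3 to 76.6%) and 296 of 553 cores of up to 1 mismatch (53.5%, 49.4 to 57.6%) upstream. In CTCF intervals without H3K4me3 that held an exact core within 1000 bp of such a TSS, 51.9% lay upstream (47.1 to 56.6%, n = 426). The core read with the gene in 57.6% of the 170 (50.1 to 64.8%) and in 54.3% of the 950 (51.1 to 57.5%), an excess over equal shares that is small beside that of position.

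H3K4me3 sequence also holds cores without a CTCF interval, and these lay more often on the other side. H3K4me3 intervals held 4459 cores of up to 1 mismatch, of which 54.9% (53.4 to 56.4%) lay in a CTCF interval. Within 1000 bp of a canonical coding TSS, 1264 lay upstream and 1304 downstream, and of those outside CTCF intervals 473 lay upstream and 786 downstream. These counts were not divided by the length covered. Around the 12101 coding TSSs inside H3K4me3, the mark covered 8.66 Mb upstream and 11.2 Mb downstream within 1000 bp. Of the upstream cores 62.6% (59.9 to 65.2%) lay in a CTCF interval and 46.8% in one past the limits, against 39.7% (37.1 to 42.4%) and 22.3% of the downstream cores. Exact cores were rarer and mostly covered, 375 of 410 (91.5%, 88.4 to 93.8%). Within 1000 bp there were 112 exact cores upstream and 44 downstream.

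Members held the core less often than other CTCF intervals. An exact core was present in 7.52% of members (6.93 to 8.14%), against 15.7% of all CTCF intervals and 17.2% (16.9 to 17.6%) of those without H3K4me3. With up to 1 mismatch the shares were 36.1% and 56.2%. Strength did not remove the gap: 11.4% of strong members (10.3 to 12.6%) and 24% of CTCF intervals past the limits without H3K4me3 (23.4 to 24.6%) held an exact core, although the strong members were wider. In the highest of the 10 parts by fold enrichment the shares were 18.3% (16.5 to 20.3%) and 33.7% (32.0 to 35.5%). Members in which H3K4me3 alone passed held an exact core in 1.25% (0.915 to 1.70%), and members in which CTCF alone passed in 20.3% (17.7 to 23.2%).

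Base composition differed between members and other CTCF intervals. The median GC content was 64.4% in members and 44.8% in intervals without H3K4me3, and the ratio of observed to expected CpG was 0.759 and 0.227. The gap in the core was also present in several classes of the same GC content. Over all intervals below 40% GC, 6 of 172 members (3.49%, 1.61 to 7.4%) and 14.5% of intervals without H3K4me3 (13.8 to 15.1%) held an exact core. From 40 to 50% the shares were 13.3% (10.8 to 16.2%) and 18.1% (17.4 to 18.7%). For intervals past the limits with 60 to 70% GC, 12.5% of 1326 strong members (10.8 to 14.4%) and 26.0% of 1218 intervals without H3K4me3 (23.6 to 28.6%) held an exact core. From 50 to 60% GC the shares were 11.9% (9.81 to 14.3%) and 27% (25.8 to 28.2%). From 40 to 50% they were 19.2% (14.3 to 25.2%) and 25.1% (24.2 to 26.0%), with intervals that touch. Above 70% GC the shares were 5.42% and 4.55% of only 44 intervals, which does not separate them. CTCF intervals with H3K4me1 but without H3K4me3, a distal class of 7962, had 50.5% GC and an exact core in 19.1% (18.3 to 20%).

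The kind of mismatch differed as well. In 1124 strong members whose best core had 1 mismatch, it lay at position 3 in 38.3% (35.5 to 41.2%), and A3G alone made up 23.8% (21.4 to 26.3%). In 9208 CTCF intervals past the limits without H3K4me3, position 3 took 15.7% and A3G 4.47% (4.07 to 4.92%). Among 1976 cores with 1 mismatch in H3K4me3 sequence outside any CTCF interval, position 3 took 12% and A3G 2.53% (1.92 to 3.32%). A3G places a CpG in the core, as in the CSK, DNLZ and ESCO1 sites above. The best core held a CpG in 29.8% of strong members with a core (27.5 to 32.2%) and in 5.54% (5.18 to 5.93%) of the intervals past the limits without H3K4me3. The base of this position was read from the reference, and methylation was not measured.

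The core sat off the middle of the members. Its median distance from the middle, for cores of up to 1 mismatch, was 136 bp in strong members and 37 bp in CTCF intervals without H3K4me3, which were narrower. In strong members with their middle within 1000 bp of a coding TSS, the core lay on the upstream side of the middle in 58.9% (55.5 to 62.1%, n = 846).

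Promoter motifs were searched in 300 bp around the middle of each interval, on both strands, and in 300 bp around the TSSs of coding genes. The GC box (GGGCGG, read by the SP family) was present in 62.3% of strong members (60.6 to 64.1%), 9.16% of CTCF intervals without H3K4me3 and 75.7% of promoters inside H3K4me3 whose 300 bp touched no CTCF interval. The ETS motif (CCGGAAG) was present in 11% of strong members, 1.51% of intervals without H3K4me3 and 21.6% of those promoters. The YY1 motif (ATGGCGG) stood at 6.52%, 1.33% and 15.2% in the same order, and the NRF1 motif (GCGCATGC) at 2.85%, 0.368% and 5.54%. The windows of members are centred on CTCF and those of promoters on the TSS. Centred on the TSS, promoters inside H3K4me3 with a CTCF interval held the GC box in 84.3% (83.2 to 85.4%), the ETS motif in 16.2%, the YY1 motif in 13.1% and the NRF1 motif in 4.65%. Against promoters without CTCF, promoters with CTCF thus held the GC box more often and the ETS and YY1 motifs less often. For the NRF1 motif the intervals overlapped, at 4.06 to 5.32% with CTCF and 5.05 to 6.07% without. The median GC content of these windows was 73.0% with CTCF and 68.0% without, and the part of composition was not tested.

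The CCAAT box (CCAAT, read by NF-Y) was present in 20% of strong members, 34% of intervals without H3K4me3 and 35% of those promoters, and the TATA box (TATAAA) in 4.36%, 19.2% and 3.12%. Centred on the TSS, promoters inside H3K4me3 with a CTCF interval held the CCAAT box in 26.1% (24.8 to 27.4%) and the TATA box in 2.99%. The intervals without H3K4me3 were richer in A and T, as given above, and the part of composition was not tested. Over all 20162 coding promoters the shares were 61.1% for the GC box, 32.7% for CCAAT, 13.4% for ETS, 9.88% for YY1, 3.71% for NRF1 and 8.18% for TATA. The CTCF core of up to 1 mismatch was present in 25.8% of strong members, 14.4% of weak members and 49.0% of CTCF intervals without H3K4me3, against 2.90% (2.55 to 3.30%) of promoters inside H3K4me3 without CTCF and 5.11% of all coding promoters. In windows centred on the TSS it was present in 9.25% (8.42 to 10.2%) of promoters with a CTCF interval, against the 2.90% without.

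**Figure D4:**
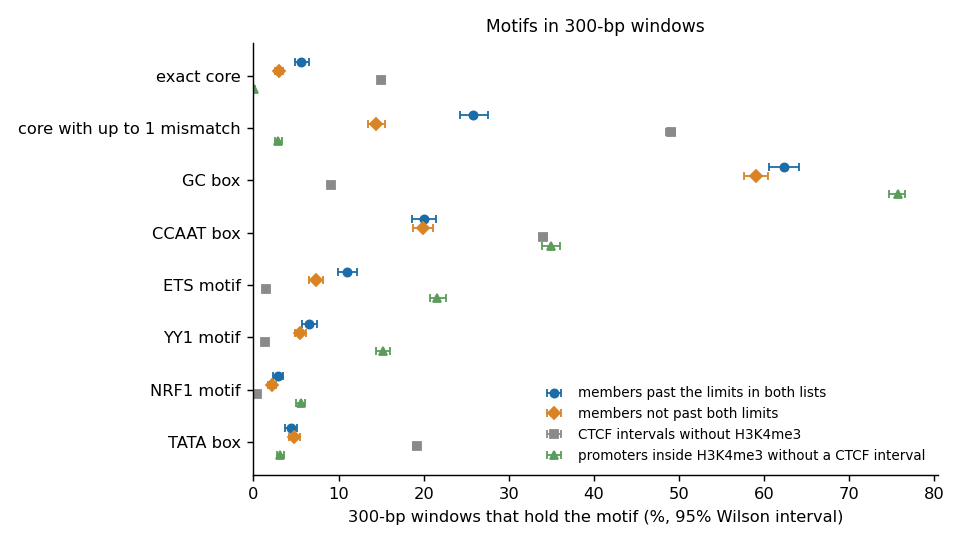
Share of 300-bp windows (%) that hold each motif, with 95% Wilson intervals, for strong members (blue circles), weak members (orange diamonds), CTCF intervals without H3K4me3 (grey squares) and, centred on the TSS, promoters inside H3K4me3 without CTCF (green triangles). The core of up to 1 mismatch is at 25.8% in strong members, between 2.90% at promoters without CTCF and 49.0% in CTCF intervals without H3K4me3.

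The other histone marks were those of active promoters, which H3K4me3 intervals carried with or without CTCF, as given below. H3K9Ac, an acetyl mark of active genes, overlapped 98.5% of members (98.2 to 98.8%) and 16.1% of CTCF intervals without H3K4me3. H3K4me1, which flanks promoters and marks enhancers, overlapped 86.0% of members (85.2 to 86.8%) and 21.2% of the others. H3K27me3, the mark of Polycomb, overlapped 4.97% (4.49 to 5.49%) against 5.86% (5.63 to 6.10%), and H3K36me3, the mark of transcribed gene bodies, 6.45% against 11.2%. The last 2 lists have few intervals past the limits, 1552 of 55270 and 90 of 40010.

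The H3K4me3 intervals with and without CTCF differed little in H3K9Ac and more in the other marks. H3K9Ac overlapped 98.3% of H3K4me3 intervals with CTCF and 97.8% of those without. H3K4me1 overlapped 95.9% (95.4 to 96.3%) and 90.8% (90.2 to 91.4%), and H3K27me3 6.20% and 3.99%. Intervals with CTCF were wider, as given above, and a wider interval overlaps more. The part of width was not tested. Among members, H3K27me3 was most frequent where neither CTCF nor H3K4me3 passed, at 19.9% (16.4 to 24%) of 427, against 3.67% of strong members.

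The class of the gene at the nearest TSS was protein-coding for 75.6% of members (74.6 to 76.6%), lncRNA for 17% (16.1 to 17.9%), pseudogene for 4.85% and small RNA for 2.14%. For CTCF intervals without H3K4me3 these shares were 48.9%, 24.8%, 16.5% and 8.47%. Counted from the genes, 12428 of 20162 coding genes had H3K4me3 within 1000 bp of the TSS, and 5299 of them had a member there (42.6%, 41.8 to 43.5%). With both intervals past the limits it was 19.1% of 11924. The share was 43.8% (42.3 to 45.3%) for lncRNA genes with H3K4me3, 37.4% for pseudogenes and 33.3% (29.4 to 37.5%) for small RNA genes. Genes of these classes that share a promoter with a coding gene were not set apart.

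Coding genes whose TSS faced another coding TSS head to head within 1000 bp had a member less often. With H3K4me3 they had one in 649 of 1817 cases (35.7%, 33.5 to 37.9%), against 43.8% (42.9 to 44.8%) of other coding genes with H3K4me3. For members past both limits the values were 12.6% (11.2 to 14.2%) and 20.2% (19.5 to 21.0%). Genes were counted, not promoters. A facing pair can thus count the same member at both genes, and the intervals do not allow for this.

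The middle of a member lay outside canonical coding transcripts in 53.0% of cases, in an intron in 26.5%, in a 5′ UTR in 11%, in coding sequence in 8.35% and in a 3′ UTR in 1.15%. Strong members lay outside in 59.0% (57.2 to 60.8%) and weak members in 49.1% (47.6 to 50.5%). By chromosome, members made up between 11.4% of CTCF intervals on chromosome 18 and 26.5% on the gene-rich chromosome 19, over the autosomes and X.

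The highest members served genes of unrelated functions. NBN, a subunit of the complex that senses DNA breaks, had a CTCF fold enrichment of 42.1 (chr8:90996005-90997403). ABCA3, a lipid transporter of lung surfactant, followed with 39.6, CSK, the kinase that holds Src inactive, with 39.5, and CRYBG1, a member of the crystallin superfamily, with 38.6. DNAJC11, a mitochondrial J-domain protein, had 37.9, RPL26, of the large ribosomal subunit, 37.7, and DNLZ, a mitochondrial zinc finger chaperone, 37.4. ASB6, a SOCS-box protein, had 36.9, GAA, the lysosomal glucosidase of glycogen, 35.8, and NYAP1, a neuronal adaptor of PI3 kinase, 35.8. Their H3K4me3 fold enrichment lay between 15.8 (NYAP1) and 38.6 (DNAJC11), and all 10 also overlapped H3K9Ac.

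Genes were then counted over 15 lists, each against the 42.6% of all coding genes with H3K4me3. Most lists are small, and their intervals are wide. The 15 lists held 488 genes with H3K4me3, of which 175 had a member. Of the genes for CTCF and cohesin, 12 of 16 with H3K4me3 had a member (75%, 50.5 to 89.8%), with a median CTCF fold enrichment of 13.9 against 5.86 over all coding genes, and 8 were past both limits (95% interval 28.0 to 72.0%, against 19.1%). YY1, a promoter factor that also joins loops, had 27.8, with the interval 638 bp downstream of its TSS. STAG1 had 26.2, PDS5B 24.2, ESCO1 23.8, PDS5A 19 and STAG2, whose interval lay 860 bp upstream, 16.7. CTCF itself had 11.1 at an interval that contained its own TSS.

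Regulators of cohesin completed this list with lower values. NIPBL, the cohesin loader, had 7.45, and its partner MAU2 had 3.98. RAD21, a core subunit, had 5.03, WAPL, which releases cohesin, 4.39, and ZNF143, a promoter factor, 3.30. SMC1A, SMC3, CDCA5 and ESCO2 had H3K4me3, with fold enrichment of 16.4, 38.3, 31.9 and 23.1, and no member. CTCFL, the germline relative of CTCF, had no H3K4me3 interval.

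Of the loci long linked to CTCF, 6 of 12 with H3K4me3 had a member (95% interval 25.4 to 74.6%). APP, the amyloid precursor, had a CTCF fold enrichment of 19 and the kinase gene PIM1 8.52, both at intervals over the TSS. PLK1 (6.64), MYC (4.82) and IGF2 (3.87) were not past the CTCF limits. BRCA1, RB1, CDKN2A, TERT, BCL6 and PAX6 had H3K4me3 within 1000 bp of the TSS and no member, and H19, the imprinted RNA, had no H3K4me3 there.

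The loci that the study assayed by PCR gave a mixed picture. The study assayed POU5F1 and TBX3 in human embryonic stem cells and used L32 (RPL32) as an RNA reference. Its PCR values are not set against the CTCF intervals of HCT116 cells given here. EGR1, an immediate early transcription factor, had an interval of 15.0 that ended 475 bp upstream of its TSS (chr5:137798885-137800693). RPL32 had 18.1 and TBX3, a T-box factor, 10.9, both over the TSS. NR4A3, a nuclear receptor induced by serum, had 4.67, not past the limits, in an interval of 3423 bp that also overlapped H3K27me3. UBE2B had H3K4me3 and no member, and POU5F1, a gene of pluripotent cells, had no H3K4me3 interval within 1000 bp of its TSS.

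Lists above the background share were those of imprinted genes, 9 of 11 (81.8%, 52.3 to 94.9%), and immediate early genes, 14 of 20 (95% interval 48.1 to 85.5%). Their members were mostly weak, and past both limits neither list stood apart from the 19.1% of all coding genes. Among imprinted genes 1 of 10 was past both limits (95% interval 1.79 to 40.4%), at CDKN1C, an inhibitor of the cell cycle (8.18), and the facing genes SGCE and PEG10 shared 1 interval of 6.38. Among immediate early genes 5 of 20 were past both limits (95% interval 11.2 to 46.9%), with SRF at 21.2, EGR1 at 15.0 and the phosphatase DUSP1 at 10.8 as the highest. Shares whose interval included the background followed. Wnt pathway genes had a member in 13 of 23 (56.5%, 36.8 to 74.4%), with DVL1 at 23.9, DKK1 at 18.4 and AXIN1 at 10.4, and intestinal epithelium genes in 7 of 13, led by KRT8 at 18.0, ELF3 at 13.8 and KLF5 at 5.43. Clustered protocadherins had H3K4me3 at 3 genes and a member at 2, PCDHAC1 (18.3) and PCDHGA10 (11.6).

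Cytoplasmic ribosomal protein genes stood near the background, with 33 of 81 (40.7%, 30.7 to 51.6%), of which 22 were past both limits (27.2%, 18.7 to 37.7%), and with a median fold enrichment of 11.9. RPL26 (37.7), RPL10A (26.2) and RPS15 (22.7) were the highest. Complex I subunits of the respiratory chain had 12 of 37 (32.4%, 19.6 to 48.5%), led by NDUFA6 (22.3), NDUFB10 (19.9) and NDUFB7 (13.7). Cell cycle genes had 10 of 32 (31.2%, 18.0 to 48.6%), with CDKN1A at 17.6, CCND1 at 9.33 and CDC20 at 7.08.

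Of the lists under the background share the largest was that of the zinc finger genes of chromosome 19, with 30 of 145 (20.7%, 14.9 to 28.0%) and 10 of 140 past both limits (7.14%, 3.93 to 12.6%). ZNF554 (21.2), ZNF580 (15.2) and ZNF576 (12.6) were the highest. Many genes of this family are near copies, and whether their reads align uniquely was not tested. The intervals of the lists that follow included the 42.6% of all coding genes. HOX clusters had 7 of 23 (30.4%, 15.6 to 50.9%), with HOXC5 at 14.9, HOXA4 at 6.88 and HOXA7 at 4.36. In a window of 2000 bp they had 14 of 25, where the share of all coding genes was 44.2%. Clustered histone genes had 14 of 46 (30.4%, 19.1 to 44.8%). The facing H2AC25 and H2BC26 shared 1 interval of 6.77, and H4C14 stood at 6.21. Host genes of snoRNAs and abundant lncRNAs had 5 of 18 (27.8%, 12.5 to 50.9%). SNHG7 stood at 18.0, EPB41L4A-AS1 at 14.3 and SNHG16 at 8.95. DNA mismatch repair had 1 of 8, EXO1, at 6.84.

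**Figure D5:**
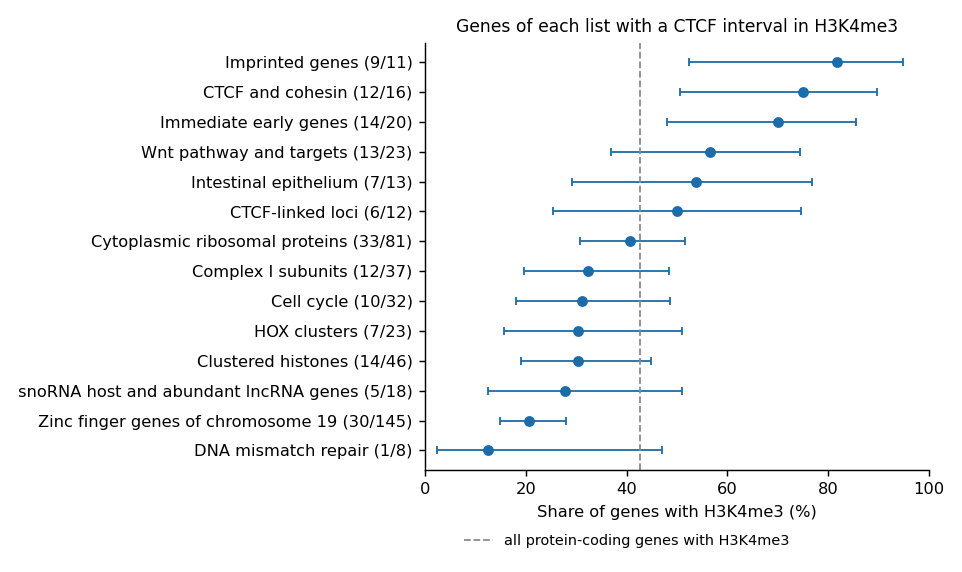
Share of the genes with H3K4me3 that have a CTCF interval in H3K4me3 within 1000 bp of the TSS (%, points, with 95% Wilson intervals as bars) for the lists with at least 8 such genes. The dashed line is the 42.6% of all protein-coding genes with H3K4me3; the zinc finger genes of chromosome 19 are the 1 list whose bar lies wholly below it, while imprinted, CTCF and cohesin, and immediate early genes lie wholly above.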

How the data were processed

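ChIP-seq intervals of HCT116 cells were taken from 6 peak lists, 1 library per mark. H3K27Ac was not analysed here. The authors aligned reads to hg19 and called peaks for each library with MACS2 in its broad mode (cutoff 0.1). The submitters' processing notes name bcl2fastq 2.20.0.442, BWA 0.7.12, SAMtools 0.1.19 and MACS 1.4.2. The fold enrichment that the authors deposited is a ratio on a linear scale. For each interval the authors also deposited its q-value and p-value, both as −log10; the p-value was not used. The lists keep intervals down to the cutoff, so the limits of the Methods (q-value below 1e-10 and fold enrichment above 5; below 1e-03 and above 2 for H3K4me1 and H3K27me3) were applied as a class and as an alternative. The Methods give the first limit for other histone marks and name none for CTCF; it was applied to CTCF here. The depth is unknown, and depth changes how many intervals are called and how wide they are.

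Overlaps of at least 1 bp, distances and motif matches were computed in Python 3.11.15 with numpy 2.4.6, pandas 2.3.3 and scipy 1.17.1, and drawn with matplotlib 3.10.9. The 7305 members were checked against bedtools 2.31.1, with a difference of 0. On simulated data, 600 of 600 planted overlaps and 185 of 185 planted cores were recovered. TSSs came from GENCODE 44 on hg19, and the sequence was the hg19 reference. Where a gene has several members, the highest is given. No test was made, since each mark has 1 library. The members, the 15 gene lists and the rule for named genes were chosen with earlier results of these data known. Named were the 10 highest strong members at coding TSSs, the widest strong member and the H3K4me3 intervals with most members, the loci assayed in the study, the 3 highest genes of each list, and every gene of the lists for CTCF and cohesin and for CTCF-linked loci, apart from 1 gene that is not reported here. HOXA9, HOXA10, ZNF503, RGMB and PDE4A were named as genes inside those intervals. Classes by GC content and CTCF fold enrichment, sites within H3K4me3, mismatch positions and the split by the CTCF limit alone were examined after the data were seen. Sequence from chromosome 8 is not printed.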

Additional observations from a re-analysis of the deposited data

How the results depend on the processing

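No paired analysis was possible because no mark was measured in a second library. With the limits of the Methods in every list, 2913 members remained, or 11.9% of CTCF and 22.7% of H3K4me3 intervals. They contained a TSS in 78.2%, lay upstream in 48.1% of those beside it, at a median distance of 184 bp, next to coding genes in 78.9%. They held an exact core in 11.4% and overlapped H3K9Ac in 95.8%, H3K4me1 in 80.4%, H3K27me3 in 1.30% and H3K36me3 in 0.343%. Their median fold enrichment was 13.2. Of coding promoters 19.1% had such a member, and 74 genes of the lists in place of 175. A fold enrichment limit multiplied by 1.5 left 2539 members (12% of CTCF and 20.6% of H3K4me3 intervals), and cover of 50% of the CTCF interval gave 14.0%. With TSSs of coding transcripts, 60.3% contained a TSS, 47.7% of the others were upstream and the median distance was 296 bp. With 1 canonical TSS per gene the values were 55.3%, 42.7% and 399 bp, with 69.6% next to coding and 20.6% next to lncRNA genes. From the middle of the interval 49.2% were upstream. The core was found in 36.1% with 1 mismatch and in 4.02% within 300 bp. Windows of 500 and 2000 bp gave 40% and 44.2% of coding promoters. Of 84 recomputed values 39 stayed within the counting interval or within 1.5 times the count, among them the side and the strand of exact cores. Some settings leave fewer intervals or TSSs, and why values moved was not tested.

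The depth of the libraries is unknown, so a promoter without a CTCF interval is one at which none was called in this library.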
